A study of Arabidopsis thaliana with 9 samples.

Results

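Genes that lay lower in AtSPP knockdown lines alone were picked out of 9 Affymetrix ATH1 arrays of Arabidopsis thaliana. A probe set, the group of probes that reports 1 transcript, was a member when all 3 knockdown arrays lay below the 6 other arrays, when the knockdown mean lay at least 0.0003 below the Col-0 mean, and when the AtSPP-overexpressed and Col-0 arrays overlapped. The members were thus chosen by their values on all 9 arrays. Genes on a list of 9 that are described elsewhere were then set aside, which removed 2 probe sets. This left 185 members of 22746 probe sets, of which 9.22% met the first condition. Of these members, 84 were paired with 1 gene, 4 with several genes and 97 with no gene in the platform annotation used here.

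The 3 groups were AtSPP-overexpressed lines, AtSPP knockdown lines and the parental strain Col-0, with 3 arrays each, and RNA of 20 whole plants was pooled for each array. All plants were grown for 7 days on diluted Murashige and Skoog medium with 0.8% agar. The overexpressed lines carried full-length AtSPP behind the CaMV 35S promoter, which is active in most plant tissues, and the knockdown lines carried an RNAi construct made from a 600 bp fragment in replicate 1 and from a 400 bp fragment in replicates 2 and 3. The labels do not state whether the replicates of a transgenic group are independent lines, or how the Col-0 samples were separated. A p-value below thus rests on the scatter among these pools, some of which may be technical.

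AtSPP is the Arabidopsis signal peptide peptidase, an aspartic protease of the endoplasmic reticulum that cuts proteins inside the membrane, signal peptides left over from protein import among them. Growing seedlings live on their own photosynthesis, and the plastid takes part in sugar synthesis, in the assimilation of sulfate and in the response to cold. Several of the named members act in those processes, while others act in the phenylpropanoid pathway, at the cell wall or in the nucleus.

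The authors deposited 1 value per probe set and array, made with the distribution free weighted (DFW) method and taken here as log2 values. DFW draws the arrays together wherever they differ little, so a probe set had a median standard deviation (SD) of 5.38e-06 across all arrays. The differences below are therefore given in thousandths of a DFW unit and are not fold changes of RNA, and the size of a difference was not compared between probe sets as an amount of RNA. Array medians lay between 6.30234 and 6.30291. The array controls for RNA integrity are 3' minus 5' values. For GAPDH this ran from 1.69082 to 1.69089 in knockdown lines, from 1.69077 to 1.69085 in overexpressed lines and from 1.69083 to 1.69088 in Col-0. For actin it was larger, from 3.15261 to 3.15263 in knockdown lines, from 3.15259 to 3.15262 in overexpressed lines and from 3.15260 to 3.15262 in Col-0. Since DFW draws arrays together, such close values cannot show that RNA integrity was equal. A gene is called measured here if the platform annotation paired a probe set with it alone. That annotation does not list 8730 of the 22746 probe sets, so a gene not measured may still be on the array. Of the markers for leaf photosynthesis, 2 of 18 genes were measured. Their mean level was 11.2911 to 11.2920 in knockdown lines, 11.2850 to 11.2865 in overexpressed lines and 11.2864 to 11.2867 in Col-0. Of these, LHCB4.2 differed between knockdown lines and Col-0 by 0.00982 DFW units and RCA by 1.13e-07, so the higher mean came from LHCB4.2. For root markers, 2 of 16 were measured. Their mean level was 9.04841 to 9.04842 in knockdown lines, 9.04840 to 9.04843 in overexpressed lines and 9.04840 to 9.04843 in Col-0. The part of tissue composition in the results was not tested, and fewer cells of a type cannot be told apart from less RNA per cell.

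AtSPP itself was checked first. Relative to the Col-0 mean, its probe set read -50.9, -37.1 and -55.6 thousandths on the knockdown arrays, 214, 253 and 183 on the overexpressed arrays and -12.5, 5.55 and 6.96 on the Col-0 arrays. Each group thus lay apart from the others, in the order that the labels give. In limma, AtSPP was higher in overexpressed lines than in Col-0 (adjusted p = 0.0140) and lower in knockdown than in overexpressed lines (adjusted p = 0.00183), while knockdown against Col-0 gave an adjusted p = 0.125, which was 0.0379 without overexpressed replicate 2, 0.0303 with the 6 arrays of the comparison alone, 0.00443 after centring on array medians and up to 0.291 under the other alternatives. AtSPP is no member, because its overexpressed arrays lay wholly above Col-0.

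Across the 185 members the median difference between knockdown lines and Col-0 was -0.560 thousandths, with a range from -118 to -0.3001. For the 84 members of 1 gene the median was -0.538 and the lowest value was -7.36. These values chose the members and are a description. In limma, 159 of the 185 members passed an adjusted p of 0.05 as lower in knockdown lines than in Col-0, against 6.94% of all probe sets. Against the overexpressed lines 92 members passed as lower, where the background was 2.26%. Without knockdown replicate 3 these counts were 97 and 36, and the second also fell by over 1.5 times without knockdown replicate 1 (45) or 2 (42) or overexpressed replicate 1 (46) or 3 (49). Nothing is read from them, since the rule used both comparisons, and all 3 comparisons below share arrays.

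The rule also used the overexpressed arrays, through the overlap with Col-0 and the position above the knockdown arrays, so their values over the members are a description too. The median difference between overexpressed lines and Col-0 was -0.0977 thousandths, and the overexpressed mean was below that of Col-0 in 142 members and above it in 43. For the typical member this was 17.8% of the knockdown difference, and in 8 members it was more than 50%. In limma 0 of the 185 members passed between overexpressed lines and Col-0 in either direction, beside 0.545% of all probe sets, and nothing is read from this count because the rule demanded that these groups overlap. At an unadjusted p under 0.05, 20 members were lower and 4 higher, and 15 members passed as lower by rank products, the test of the study's methods. These counts were not set beside shares over all probe sets. Nothing is read from them either, since the rule shaped these values.

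**Figure D1:**
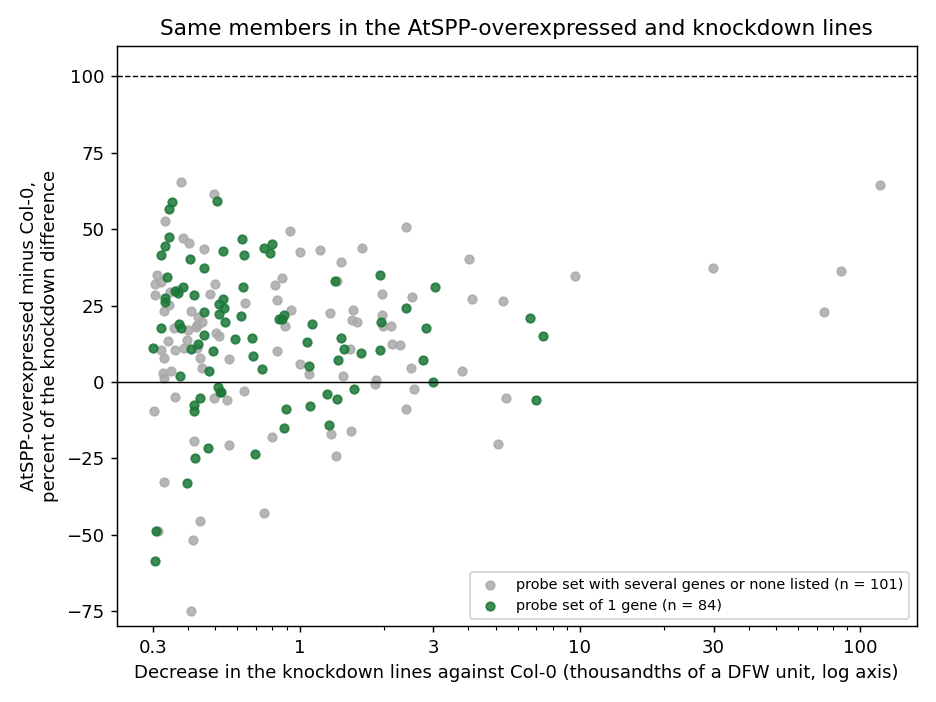
Each point is 1 of the 185 members. Probe set 246987_at, at -94.0%, lies below the drawn axis and is not shown. The horizontal axis (log) gives the decrease in knockdown lines against Col-0 in thousandths of a DFW unit, and the vertical axis gives the overexpressed difference from Col-0 as a percent of the knockdown difference, where 0 (solid line) equals Col-0 and 100 (dashed line) equals the knockdown lines. Most points lie between 0 and 50%, with a median of 17.8%.

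The 3 knockdown arrays had similar medians over the members. Relative to the Col-0 mean, the median member read -0.577 thousandths in knockdown replicate 1, -0.606 in replicate 2 and -0.582 in replicate 3. Replicate 1, whose RNAi fragment differs, was the lowest of the 3 arrays for 42 members, replicate 2 for 79 and replicate 3 for 64. It was the highest of the 3 for 86 members, replicate 2 for 49 and replicate 3 for 50. With 1 array of that fragment, fragment and array cannot be told apart. The overexpressed arrays differed more, with medians of -0.0419, -0.167 and -0.113 in replicates 1, 2 and 3. Overexpressed replicate 2, the array with the highest AtSPP value, was the lowest array outside the knockdown lines for 83 members.

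How far the knockdown arrays stood apart varied among the members. The empty gap between the highest knockdown array and the lowest other array had a median of 42.4% of the knockdown difference. It was at least 50% in 68 members and under 5% in 12. The median SD within a group was 9.53e-05 in knockdown lines, 1.40e-04 in overexpressed lines and 1.44e-04 in Col-0. Members were mostly bright probe sets: their median level was 7.68 against 6.30 for all probe sets, and 171 of 185 lay at or above the median level. The genes were spread over the genome, with 25 on chromosome 1, 13 on chromosome 2, 17 on chromosome 3, 12 on chromosome 4 and 17 on chromosome 5. No member gene was next to another in gene order, and the closest pair, AT3G13610 and AT3G13650, was 5 steps apart.

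A role was given to 17 members, called the named members here. For AT4G38100, AT5G52050 and AT3G13610 the symbol used was the locus name. Their names CURT1D, DTX50 and F6'H1 were added by hand. In limma 15 of the 17 passed as lower in knockdown lines than in Col-0, against 6.94% of all probe sets. As lower than in overexpressed lines 7 passed, against 2.26% of all probe sets. The rule used both comparisons, so nothing is read from these counts. The first count was 9 without knockdown replicate 1 and 8 without replicate 3, and the second was 1 to 3 without any knockdown array or overexpressed replicate 1 or 3. The second count was also 2 with the 6 arrays of the comparison alone or under a replicate block. It was 17 after centring, where most probe sets passed as lower. The role groups were drawn up with these members known.

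The photosynthetic membrane was represented by 4 members. AT4G38100 (CURT1D) belongs to the proteins that bend thylakoid membranes at the edges of the grana. It read -3.41, -2.70 and -3.04 thousandths on the knockdown arrays, -0.803, -1.53 and -0.509 on the overexpressed arrays and 0.572, -0.569 and -0.00237 on the Col-0 arrays. The knockdown mean differed from Col-0 by -3.05 ± 0.383 (SE) thousandths. The overexpressed mean also lay below Col-0, by 31.1% as much, with 1 array inside the Col-0 range.

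LHCB4.3 is a minor antenna protein of photosystem II. Its values were -1.52, -1.33 and -1.36 thousandths on the knockdown arrays, -0.499, 0.128 and -0.238 on the overexpressed arrays and 0.0415, -0.118 and 0.0769 on the Col-0 arrays. The knockdown arrays thus formed a tight cluster, and the gap to the nearest other array was 59.2% of the difference.

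NdhN is a subunit of the chloroplast NADH dehydrogenase-like complex, which returns electrons around photosystem I, and CRR42 is needed to assemble that complex. NdhN read -0.404, -0.505 and -0.365 thousandths on the knockdown arrays, -0.0622, 0.198 and 0.181 on the overexpressed arrays and 0.0384, -0.0867 and 0.0483 on the Col-0 arrays. CRR42 read -0.488, -0.473 and -0.468 on the knockdown arrays, -0.0773, 0.0325 and -0.00817 on the overexpressed arrays and -0.0280, -0.0684 and 0.0964 on the Col-0 arrays. In both genes the overexpressed and Col-0 arrays were intermingled around 0. CRR42 had a gap of 82.0% of its difference, and its 3 knockdown arrays lay within 0.02 thousandths of each other.

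Among the genes of sugar metabolism was ATSPS4F, a sucrose phosphate synthase, which makes the precursor of sucrose. It read -1.76, -1.68 and -2.36 thousandths on the knockdown arrays, -0.420, -0.230 and 0.0409 on the overexpressed arrays and -0.412, 0.387 and 0.0252 on the Col-0 arrays. The overexpressed values lay almost wholly within the range of Col-0. SWEET1, a glucose transporter, had a smaller difference of -0.369 ± 0.0629 (SE) thousandths. Its arrays read -0.420, -0.373 and -0.314 in knockdown lines, -0.0686, -0.202 and -0.0528 in overexpressed lines and 0.0540, -0.116 and 0.0618 in Col-0, so that overexpressed replicate 2 came nearest to the knockdown arrays.

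**Figure D2:**
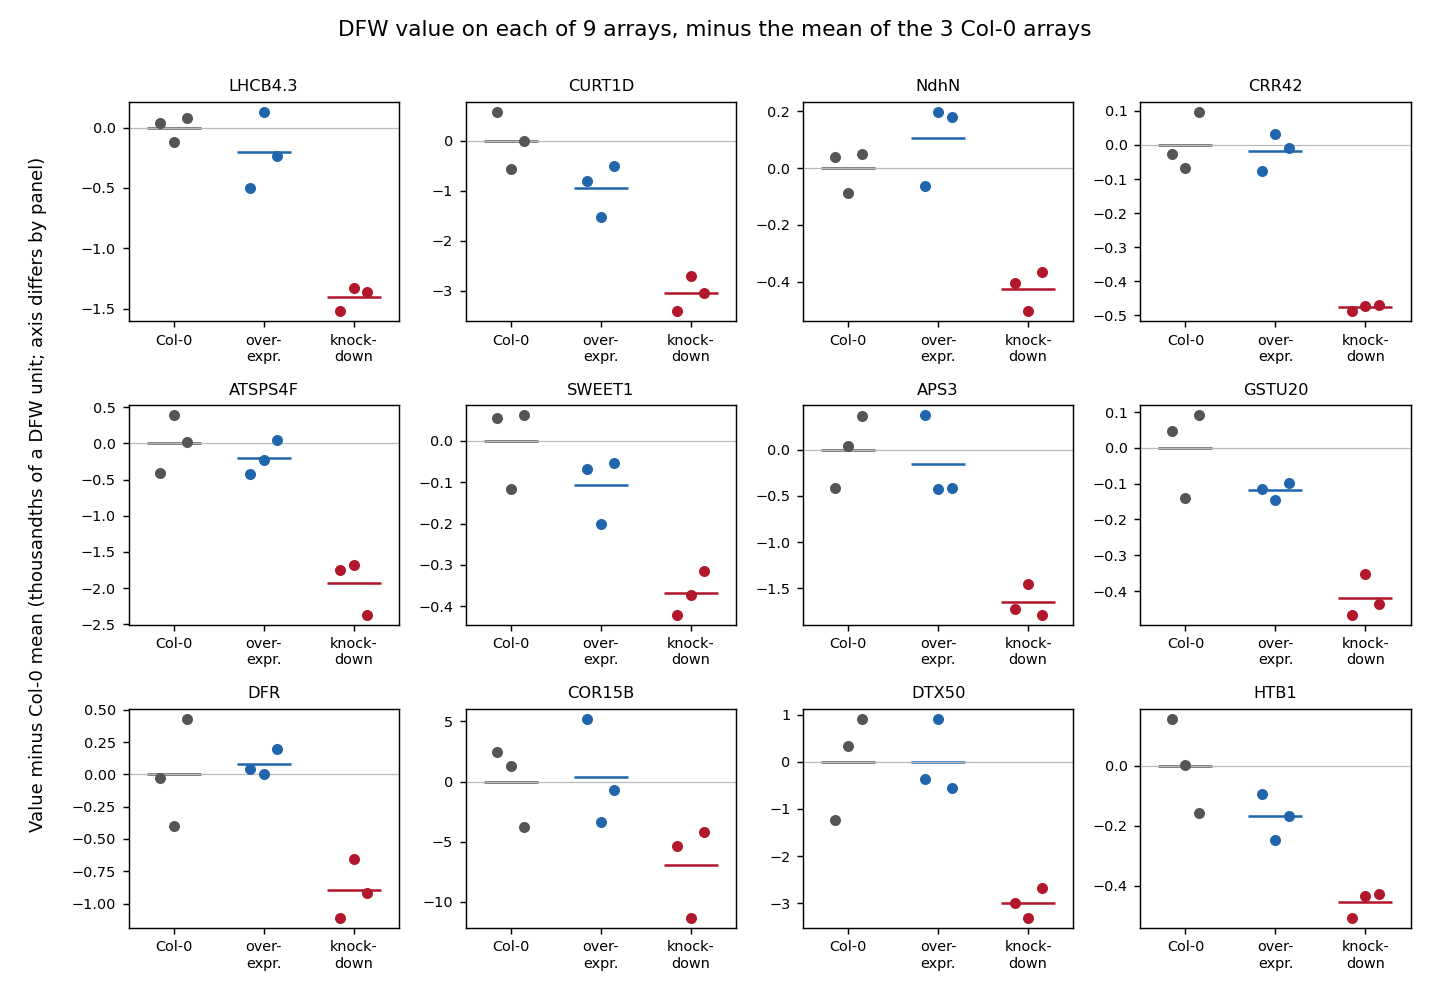
Each panel shows 1 named member, with a point for each of the 9 arrays and a bar for the group mean. The vertical axis is the value minus the Col-0 mean in thousandths of a DFW unit and differs between panels. In every panel the 3 knockdown arrays (red) lie below the overexpressed (blue) and Col-0 (grey) arrays, as the rule demands, while the spread within groups is widest in COR15B.

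Sulfate and glutathione were represented by APS3 and GSTU20. APS3 is an ATP sulfurylase, the enzyme that activates sulfate for assimilation. Its values were -1.73, -1.45 and -1.78 thousandths on the knockdown arrays, 0.374, -0.424 and -0.415 on the overexpressed arrays and -0.409, 0.0414 and 0.367 on the Col-0 arrays. Overexpressed and Col-0 arrays spanned nearly the same range, well above the knockdown arrays.

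GSTU20 is a glutathione S-transferase of the tau class. It read -0.466, -0.353 and -0.436 thousandths on the knockdown arrays, -0.114, -0.144 and -0.0973 on the overexpressed arrays and 0.0484, -0.140 and 0.0912 on the Col-0 arrays. Its overexpressed arrays agreed closely among themselves and lay near the lowest Col-0 array.

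The phenylpropanoid and flavonoid pathways held 3 named members. DFR, dihydroflavonol 4-reductase, acts late in the synthesis of anthocyanins. Its arrays read -1.11, -0.653 and -0.917 thousandths in knockdown lines, 0.0424, -0.000183 and 0.195 in overexpressed lines and -0.0304, -0.403 and 0.433 in Col-0. The overexpressed mean lay slightly above Col-0, and Col-0 replicate 2 was the nearest array to the knockdown lines. DFR passed in limma against Col-0 (adjusted p = 0.0432) but lost the call without any single array other than Col-0 replicate 2, at adjusted p from 0.0636 to 0.124 against 0.0289 without that array.

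GT72B1 (UGT72B1) is a glucosyltransferase of lignin precursors and of foreign phenols. It read -0.606, -0.591 and -0.706 thousandths on the knockdown arrays, -0.281, -0.384 and -0.126 on the overexpressed arrays and 0.209, -0.0661 and -0.142 on the Col-0 arrays. The overexpressed mean stood between knockdown and Col-0, at 41.5% of the knockdown difference, and overexpressed replicate 3 lay inside the Col-0 range. AT3G13610 (F6'H1), a hydroxylase in the synthesis of the coumarin scopoletin, lay close to the size limit with a difference of -0.330 ± 0.110 (SE) thousandths and did not pass in limma against Col-0. Its highest knockdown array, replicate 2 at -0.252, was only slightly below the lowest overexpressed array, replicate 3 at -0.209.

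Secreted and cell wall proteins included ECS1, SAH7 and RALFL34. SAH7, related to the pollen allergen Ole e 1, read -0.632, -0.729 and -0.677 thousandths on the knockdown arrays, -0.0301, -0.288 and 0.148 on the overexpressed arrays and -0.0283, 0.0116 and 0.0167 on the Col-0 arrays. ECS1, a small protein of the cell wall, read -0.678, -0.556 and -0.237 on the knockdown arrays, -0.0766, 0.0365 and -0.110 on the overexpressed arrays and -0.0779, 0.0122 and 0.0656 on the Col-0 arrays. The knockdown arrays were even in SAH7, whereas in ECS1 replicate 3 stood nearer to the other groups than to replicate 1.

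RALFL34 belongs to the rapid alkalinization factors, secreted peptide signals that act through receptor kinases. Its values were -0.352, -0.356 and -0.316 thousandths on the knockdown arrays, -0.173, -0.283 and -0.0285 on the overexpressed arrays and -0.0359, 0.0384 and -0.00241 on the Col-0 arrays. Overexpressed replicate 2 came within 0.1 thousandths of all 3 knockdown arrays, and the overexpressed mean amounted to 47.4% of the knockdown difference.

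AT5G52050 (DTX50) exports abscisic acid from the cell. It read -3.01, -3.31 and -2.68 thousandths on the knockdown arrays, -0.360, 0.917 and -0.565 on the overexpressed arrays and -1.23, 0.329 and 0.897 on the Col-0 arrays. The overexpressed and Col-0 means were the same to within 0.00256 thousandths, although the arrays of both groups were spread widely.

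COR15B is a cold-regulated protein of the chloroplast stroma that protects membranes during freezing. Its values were -5.35, -11.3 and -4.17 thousandths on the knockdown arrays, 5.24, -3.32 and -0.712 on the overexpressed arrays and 2.47, 1.27 and -3.73 on the Col-0 arrays. The spread within each group was large, and knockdown replicate 3 lay just below Col-0 replicate 3. With a difference of -6.95 ± 3.01 (SE) thousandths it did not pass in limma against Col-0.

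HTB1 is a histone H2B. It read -0.508, -0.434 and -0.427 thousandths on the knockdown arrays, -0.0940, -0.248 and -0.168 on the overexpressed arrays and 0.157, 0.00155 and -0.158 on the Col-0 arrays. The overexpressed arrays lay between the other groups and overlapped Col-0 only through its replicate 3.

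**Figure D3:**
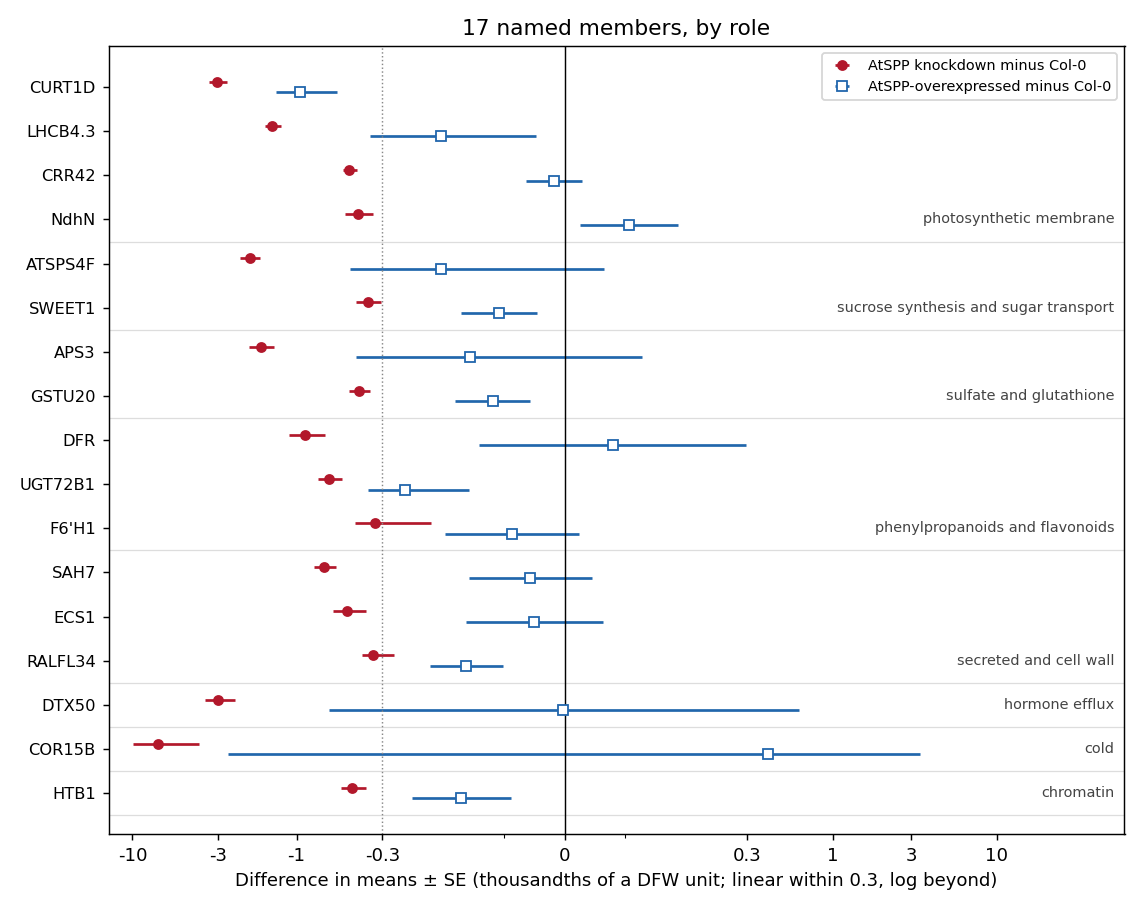
Mean difference from Col-0 with its standard error (limma, 9 arrays) for the 17 named members, ordered by role. Filled circles are knockdown lines, open squares are overexpressed lines, and the dotted line marks the size limit of -0.3 thousandths. All filled circles lie at or left of that line, while the squares run from -0.946 (CURT1D) to 0.405 (COR15B).

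The remaining 67 members of 1 gene carry a locus name alone in the annotation used here, and no role is given to them. AT1G60590 had the lowest difference among all members of 1 gene. It read -7.24, -8.25 and -6.59 thousandths on the knockdown arrays, 0.263, -1.75 and -1.83 on the overexpressed arrays and -0.0646, 0.332 and -0.267 on the Col-0 arrays. Col-0 was tight, the overexpressed lines reached below it on 2 of 3 arrays, and the knockdown arrays stood far from both.

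AT1G23205 read -6.73, -6.85 and -6.39 thousandths on the knockdown arrays, -0.399, -2.62 and -1.13 on the overexpressed arrays and 1.75, -0.584 and -1.16 on the Col-0 arrays. AT1G31690 read -2.89, -2.98 and -2.57 on the knockdown arrays, 0.0909, -0.930 and -0.646 on the overexpressed arrays and 0.0760, 0.202 and -0.278 on the Col-0 arrays. AT5G38980, one of the brightest members with a Col-0 level of 10.06, read -2.48, -2.91 and -2.90 on the knockdown arrays, 0.0431, -0.345 and -0.281 on the overexpressed arrays and -0.122, 0.159 and -0.0369 on the Col-0 arrays. All 3 loci showed even knockdown arrays, with overexpressed replicate 2 the lowest outside them. For AT5G38980 the knockdown and Col-0 means became equal after quantile normalization, with a difference of 0.

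Other loci among the 20 lowest of the members of 1 gene were AT5G62140 at -2.39 ± 0.351 (SE) thousandths, AT1G01320 at -1.95 ± 0.262, AT3G04550 at -1.94 ± 0.404 and AT4G16146 at -1.43 ± 0.179. AT2G36835, AT3G10840, AT4G12830 and AT2G03550 lay between -1.36 and -1.26. AT5G37990 (-1.56 ± 0.565) and AT2G19310 (-1.37 ± 0.524) had larger errors and did not pass in limma against Col-0.

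A second probe set, which the rule did not select, was measured for 2 of the genes. For AT1G31690 it differed between knockdown lines and Col-0 by -0.0531 ± 0.0144 (SE) thousandths (limma, adjusted p = 0.0579). For AT1G01320 it differed by -0.00288 ± 0.00162 (limma, adjusted p = 0.332). Both differences had the sign of the member and neither passed the threshold, and the sign for AT1G01320 turned after quantile normalization.

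The lowest differences of all belonged to probe sets that the annotation used here does not list. Probe set 248676_at read -115, -118 and -121 thousandths on the knockdown arrays, -48.8, -101 and -77.7 on the overexpressed arrays and -49.1, 16.4 and 32.7 on the Col-0 arrays. Here overexpressed replicate 2 came nearest to the knockdown arrays, while overexpressed replicate 1 lay beside Col-0 replicate 1. That was the only Col-0 array within the overexpressed range. The next probe sets were 255284_at at -85.3 ± 10.1 (SE) thousandths, 254343_at at -74.0 ± 10.9 and 264745_at at -29.9 ± 5.1. In each of these the overexpressed mean lay between the other groups, at -30.9, -16.8 and -11.1 thousandths.

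At the size limit, the members just inside were 257272_at at -0.303 and AT2G20450 at -0.3001 thousandths. Just outside lay 246870_at at -0.298 and UF3GT, a glycosyltransferase of anthocyanins, at -0.296. A further 153 probe sets met the other conditions but had overexpressed arrays wholly below Col-0, and 10 had them wholly above.

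The rule did not choose relatives of the named members, and these were tested with limma. A list of 36 relatives was drawn up with the members known, 17 of them in 10 families had a probe set of 1 gene, and 2 were lower and 2 higher in knockdown lines than in Col-0 at an adjusted p of 0.05, where 6.94% of all probe sets were lower and 6.56% higher. LHCB4.2, an antenna protein of the same kind as LHCB4.3, was higher in knockdown lines. It read 9.08, 9.58 and 10.8 thousandths on the knockdown arrays, -1.78, -3.14 and -0.176 on the overexpressed arrays and -0.0354, 0.332 and -0.296 on the Col-0 arrays. The difference was 9.82 ± 0.791 (SE) thousandths (limma, adjusted p = 0.00144), opposite in sign to that of LHCB4.3, and it kept its sign after quantile normalization and after centring. LHCB4.1 differed by 0.00842 ± 0.00493 thousandths (limma, adjusted p = 0.355).

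HTB2, another histone H2B, was lower in knockdown lines by -0.178 ± 0.0339 (SE) thousandths (limma, adjusted p = 0.0192), with knockdown arrays at -0.149, -0.206 and -0.178, overexpressed arrays at 0.00354, -0.0620 and -0.0681 and Col-0 arrays at 0.0407, 0.0249 and -0.0656. HTB2 lost the call without knockdown replicate 2 or 3 or Col-0 replicate 1 or 2 (limma, adjusted p from 0.0596 to 0.0670), and after quantile normalization it showed a difference of 0. UGT72B3 was lower by -0.0153 ± 0.00177 (limma, adjusted p = 0.00383), also with 0 after quantile normalization. SWEET16, a sugar transporter of the vacuole, was higher by 0.114 ± 0.0157 (limma, adjusted p = 0.00656). It did not pass after quantile normalization (limma, adjusted p = 0.0697), and its sign turned to -0.439 after centring on array medians.

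Other relatives did not pass. COR15A, the neighbour and close copy of COR15B, had arrays at -0.369, -0.739 and 0.722 thousandths in knockdown lines and at 0.383, 0.517 and -0.900 in Col-0, which overlapped (limma, adjusted p = 0.927). APS4, an ATP sulfurylase like APS3, differed by -0.00410 ± 0.0105 (limma, adjusted p = 0.881). CURT1A differed by -0.00436 ± 0.00544 (limma, adjusted p = 0.709) and CURT1C by 0.0288 ± 0.00860 (limma, adjusted p = 0.0775). Cross-hybridization between close copies was not tested.

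**Figure D4:**
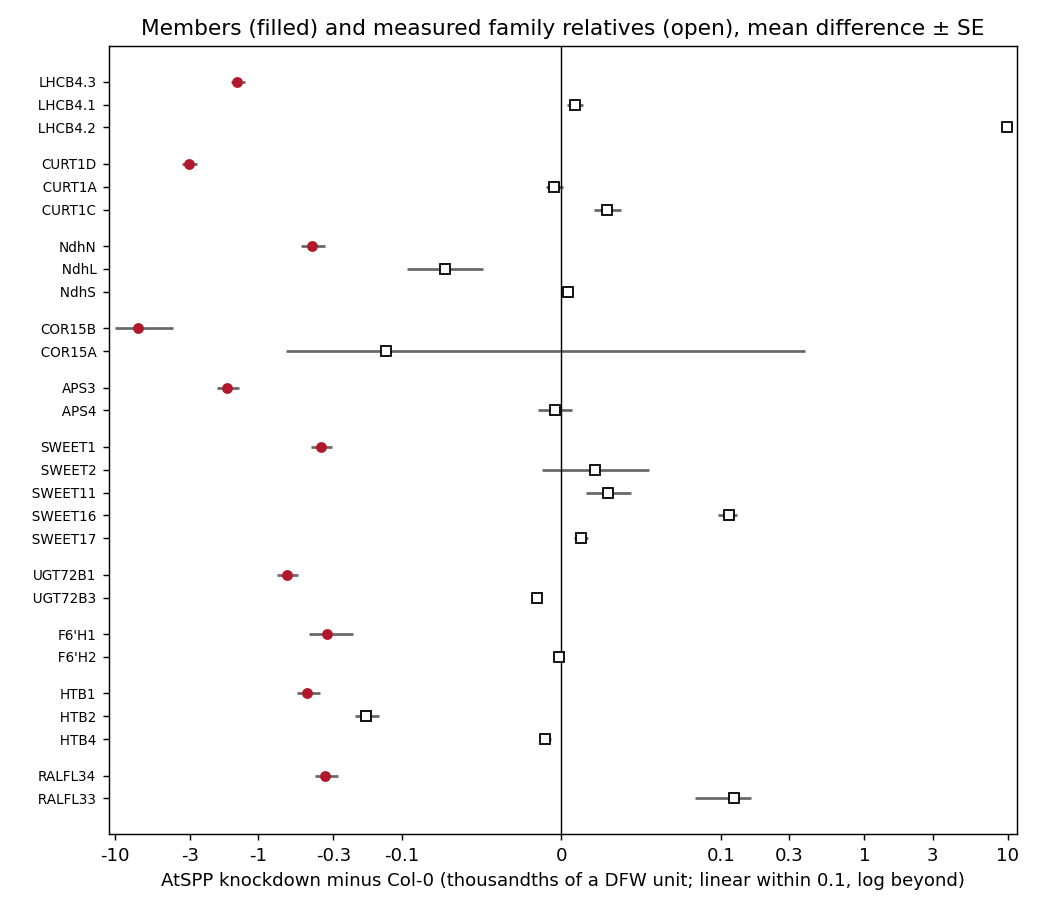
Knockdown minus Col-0 difference with its standard error (limma) for named members (filled circles) and the 17 measured relatives (open squares, listed under their member). The horizontal axis is in thousandths of a DFW unit, linear within 0.1 and logarithmic beyond. LHCB4.2 at 9.82 and SWEET16 at 0.114 are the relatives that passed as higher, and HTB2 at -0.178 and UGT72B3 at -0.0153 those that passed as lower.

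Pathway lists placed the named members among other genes. As above, a gene was measured if the annotation paired a probe set with it alone. The rest of each list may be on the array under probe sets that the annotation does not list. Of 22 flavonoid genes, 5 were measured and all 5 were lower in knockdown lines than in Col-0 in limma, beside 6.94% of all probe sets, with a median difference of -2.15 thousandths against -3.11e-04 over all probe sets. Without knockdown replicate 2 or 3 the count was 3. DFR, chosen for being lower, was the member among them, AT1G06000 was on the list set aside, and the other 3 were CHIL, UGT78D1 and UGT78D2. In UGT78D1, a flavonol rhamnosyltransferase outside the members, knockdown arrays read -3.97, -4.50 and -4.49 thousandths. Its overexpressed arrays, at -1.93, -3.03 and -1.68, lay wholly below Col-0 at 0.317, 0.0285 and -0.345. The overexpressed arrays also lay wholly below Col-0 in AT1G06000 and, by a narrow margin, in CHIL and UGT78D2, but not in DFR. The flavonoid count is thus not particular to the knockdown lines. Of 38 glucosinolate genes, 7 were measured, and 5 of them passed as lower, beside 6.94% of all probe sets, or 3 without knockdown replicate 3 or Col-0 replicate 2 or 3. GSTU20 was the member among the 5, and BCAT4, UGT74B1 and GTR1 were on the list set aside. Only AT2G31790 of the 5 was neither, at -3.17 thousandths (limma, adjusted p = 0.00424). In AT2G31790 and UGT74B1 the overexpressed arrays also lay wholly below Col-0, but not in GSTU20, BCAT4 or GTR1. With the deposited scaling 0 of the 7 were higher in limma, at an unadjusted p under 0.05 or by rank products, whereas after quantile normalization AOP3 turned from -0.00134 to 0.212 thousandths and passed as higher (limma, adjusted p = 3.88e-14).

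Of 14 cold genes, 4 were measured, and COR47, a dehydrin, was higher in knockdown lines by 0.372 ± 0.0845 (SE) thousandths (limma, adjusted p = 0.0339). The COR47 call was lost without any array other than knockdown replicate 2 or overexpressed replicate 1, at adjusted p from 0.0536 to 0.0994. Its sign turned to -0.181 after centring, the difference was 0 after quantile normalization, and rank products called no cold gene higher. The list also holds the member COR15B, which lay in the opposite direction and was called lower by rank products but not by limma. After centring limma called 2 cold genes lower and 0 higher, where most probe sets passed as lower. Of 15 sulfate genes, 3 had a probe set paired with 1 gene and 1 of them passed as lower, AT1G04770 of the list set aside. All 3 passed as lower after centring, as did most probe sets, since the array medians differ by 0.552 thousandths. Nothing is read from the counts after centring. After quantile normalization BGLU28 turned from -0.0262 to 0.0934 thousandths and passed as higher (limma, adjusted p = 0.0208). The photosynthesis list held LHCB4.2 as its only call among 2 measured genes, and the root list had none by limma, at an unadjusted p under 0.05 or by rank products. Of 14 clock genes only GI was measured and did not pass between knockdown lines and Col-0, with an adjusted p = 0.418 in limma, although rank products called it lower. None of 14 nitrate genes had a probe set paired with it alone. The 97 members without a gene in the annotation, the lowest differences of all among them, could not be placed on any list.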

How the data were processed

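RNA of pooled 7-day-old seedlings was hybridized to 9 ATH1 arrays. The authors used DFW in R for normalization, and the deposited values, read here as log2, were not rescaled. Neither log base, background correction nor version is given in the sources used here. Of 22746 probe sets, after 64 AFFX controls were left out, the platform annotation paired 13513 with 1 gene, and names were updated through RefSeq (TAIR10.1). These tables name genes but give no functions, so family keywords were not used, and no sequences were at hand.

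All arrays entered 1 limma 3.58.1 fit in R 4.3.3 (lmFit, contrasts.fit, eBayes, 6 residual degrees of freedom, no covariates), two-sided, with Benjamini-Hochberg adjustment over all probe sets and a threshold of 0.05. Rank products over all array pairs, with values permuted within arrays, were a script. Both were tested on simulated data. Alternatives were quantile normalization, centring on array medians, dropping the dimmer probe sets, an intensity trend, the arrays of a comparison alone, a replicate block, other size limits and each array left out. No scanner file was used, so background and detection are unknown. Precision is limited by having 3 arrays a group.

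Members and lists were chosen with earlier results of these data known. Named genes are AtSPP, the 20 members of 1 gene with the lowest differences, members on a list, those next to the size limit and their second probe sets. Members given a role and their relatives were added after their values were seen, as were LHCB4.2, COR47, UGT78D1, AT2G31790, AOP3, BGLU28 and the unlisted probe sets. At most 7 values were identical between any pair of arrays, and each array counted as 1 sample.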

Additional observations from a re-analysis of the deposited data

How the results depend on the processing

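Centring on array medians shifts knockdown minus Col-0 differences by -0.552 thousandths, since the array medians differ by 0.552. Counts of probe sets past the threshold were 3072 for knockdown lines against Col-0 (1579 lower), 124 for overexpressed lines against Col-0 (56 lower) and 986 for knockdown against overexpressed lines (515 lower). After centring they were 22376 (21996 lower), 354 (228 lower) and 22155 (21862 lower), and after quantile normalization 6917 (4157 lower), 2625 (1208 lower) and 2379 (1963 lower). Rank products gave 1077, 661 and 830. The arrays of a comparison alone gave 2594, 0 (2537 at an unadjusted p under 0.05) and 428, and without the dimmer probe sets the overexpressed count was 227. Leaving out 1 array gave 1540 to 2917, 5 to 51 and 343 to 923. The first count fell by over 1.5 times without any knockdown array or Col-0 replicate 1 or 2, the second without any array, and the third without any knockdown array or overexpressed replicate 1 or 3.

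The rule found 1095 members after quantile normalization, 86 of them among the 185, and 16926 after centring, 123 of them shared. Size limits of 0.0001 and 0.001 gave 455 and 64. Without 1 array it found 124 to 216 members, with a median difference of -6.11e-04 to -5.45e-04 DFW units, the unit of all differences that follow. The median over the 185 was -0.001117 after quantile normalization, with 169 lower and 6 higher, and -0.001112 after centring, with all 185 lower. For 53 named genes, 680 of 787 checks kept direction and side of the threshold, 74 lost and 19 gained it, and 14 reversed. Centring turned LHCB4.1 to -5.44e-04, AT1G52220 (CURT1C) to -5.23e-04, SWEET16 to -4.39e-04 and COR47 to -1.81e-04, and quantile normalization turned the second AT1G01320 probe set to 1.26e-04, AOP3 to 2.12e-04 and BGLU28 to 9.34e-05. Without 1 array AOP3 ran from -3.86e-06 to 1.26e-06, COR15A ran from -5.79e-04 to 1.77e-04 and APS4 from -1.70e-05 to 3.21e-06. The cause was not tested.

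The replicate number as a block gave 2346, 2 and 590 calls. The numbers do not pair the samples: correlations of deviations between same-numbered arrays ran from -0.14 to 0.21.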
